A study of Mus musculus with 6 samples.

Results

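The genes that make cholesterol, sense it and move it inside the cell were examined in cultured mouse microglia that received FTY720 alone or FTY720 with lipopolysaccharide (LPS). The 28 genes were taken by symbol from the 24411 genes of the count tables: 20 enzymes of the mevalonate and sterol pathways, 4 genes that control the transcription factor SREBP2, and 4 genes of sterol trafficking and storage. All 28 were in the tables, and all 28 passed the filter on low counts, which left 10124 genes for testing. Microglia, the resident macrophages of the brain, came from brains of 3-day-old ICR mice pooled from 12 animals, were shaken off mixed glial cultures, and were more than 92% positive for CD11b by flow cytometry, per the labels' protocols. One group of 3 libraries received FTY720 (fingolimod, a sphingosine analogue) at 1 µM for 4 h, and the other group of 3 received FTY720 at 1 µM together with LPS, a bacterial cell wall component, at 10 ng/ml for 4 h. All 6 cultures thus carried FTY720, and cells without it were not analysed here. The labels call the replicates independent RNA samples and do not say whether each had its own pool of mice, so the p-values measure the spread between these RNA samples. The libraries of the second group are called LPS replicates 1 to 3 below.

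Cholesterol is built from acetyl-CoA through mevalonate, isoprenoid units, squalene and the first sterol, lanosterol, which further enzymes convert to cholesterol. When sterol in the endoplasmic reticulum runs low, the escort protein SCAP carries SREBP2 to the Golgi, where it is cleaved into an active transcription factor of the synthesis genes; when sterol is plentiful, INSIG1 or INSIG2 holds SCAP in the endoplasmic reticulum. Cholesterol taken up with lipoproteins or engulfed membrane leaves the lysosome through NPC2 and NPC1 and is stored as ester by SOAT1, a route that phagocytes such as microglia use when they clear myelin and dying cells.

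Insig1 rose 2.69-fold when LPS was added, Ggps1 1.97-fold and Npc2 1.66-fold. The Npc2 rise, a log2 fold change of 0.73, was also the median of tested genes above 8 log2 CPM, where Npc2 lies. Fdft1 and Lss, which encode the squalene and lanosterol synthases, fell 1.76-fold and 1.70-fold. The 28 genes did not move as a block. By edgeR's quasi-likelihood test at adjusted p under 0.05, 6 were higher and 7 lower with LPS, and 15 did not pass. Of all 10124 tested genes 23.3% were called higher and 22.7% lower, against 21.4% and 25% of the 28, and 46% were called either way against 46.4% of the 28, so the share called lay near the background in each direction. The median log2 fold change was -0.15 over the 28 genes and -0.04 over all tested genes. The median of the 28 was -0.06 without FTY720 replicate 2, -0.08 without LPS replicate 1, -0.29 with upper-quartile factors and -0.47 on unscaled library sizes (-0.02, -0.03, -0.17 and -0.35 over all tested genes). For 13 of the 28 (46.4%) every LPS library lay on one side of every FTY720 library, which held for 54% of all tested genes. The calls of Insig1, Fdft1 and Lss held in all 16 alternative analyses, and those of the 10 other called genes ended in at least 1.

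Levels are given in CPM, a gene's share of its library's gene reads after TMM scaling, which compares a gene between libraries but not genes of different length. Gene reads numbered 2431775 to 3454647 per library, of which rRNA-like reads (Rn45s, Lars2 and Mir6236) took 28.8% to 59.0%; the 28 genes had 6467 to 10605 reads per library. A count of 0 allows up to 3 reads, or 0.706 to 1.502 CPM, and these limits cover counting error only. FTY720 replicate 3 had the lowest rRNA-like share and stood at -22.4 on the second principal component (7.37% of the variance), apart from the other FTY720 libraries at 6.49 and 15.2. It was the highest FTY720 library for 13 of the 28 genes and the lowest for 9. Without it 6 of the 28 were called higher and 10 lower, and of all tested genes 26.6% were called higher and 24.3% lower. Of 10 microglia markers 8 were tested, 7 were higher with LPS and none (0) lower, and their summed level ran from 1626 to 1805 CPM with FTY720 and from 2525 to 2845 CPM with LPS; Tmem119 and Siglech, both used to define microglia, had 19 and 1 reads over all 6 libraries.

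**Figure D1:**
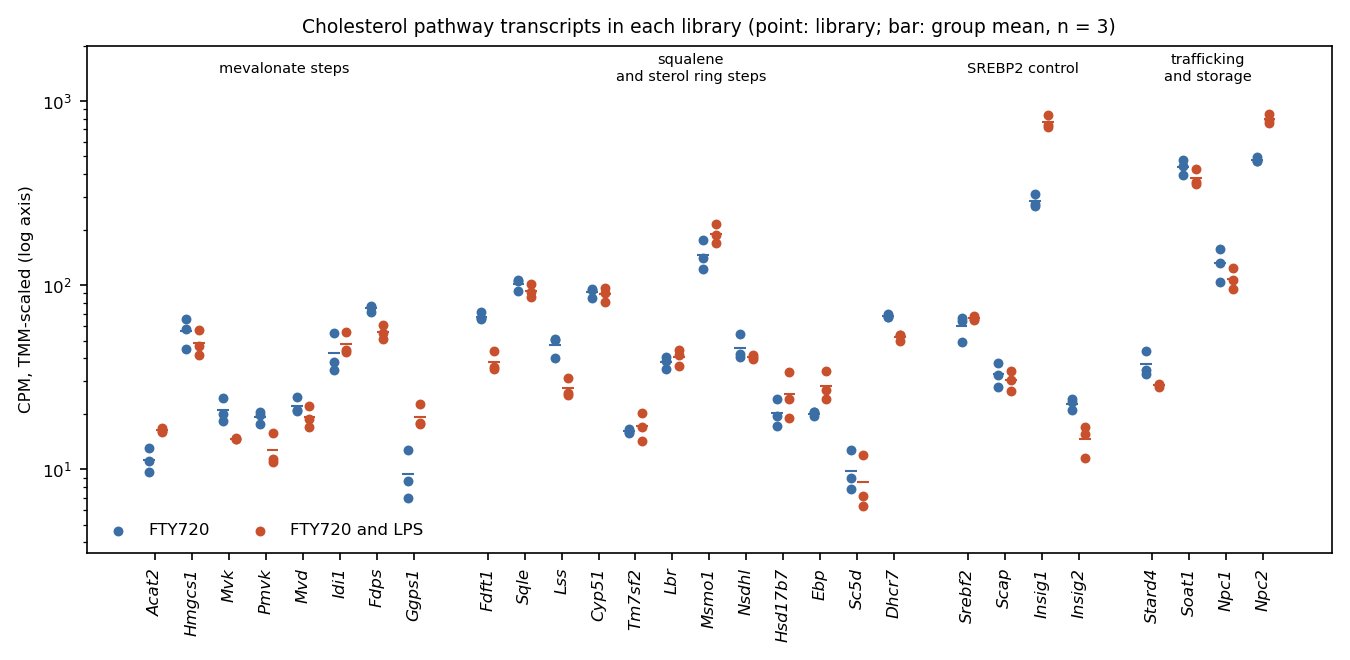
Level in CPM (TMM-scaled, log axis) of each of the 28 genes in each library, grouped by role; points are libraries and short bars are group means (n = 3). Insig1 and Npc2 are higher in all 3 LPS libraries than in any FTY720 library, while Fdft1, Lss, Fdps and Dhcr7 are lower in all 3.

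Of the genes that control SREBP2, the anchors Insig1 and Insig2 changed in opposite directions. Insig1 stood at 275, 269 and 311 CPM in FTY720 replicates 1 to 3 and at 724, 739 and 840 CPM in LPS replicates 1 to 3. Every LPS library lay above every FTY720 library. Insig1 (GRCm38 chr5:28071363-28078662, plus strand) rose by a log2 fold change of 1.43 ± 0.11 (SE, n = 3 per group; adjusted p = 1.67e-10), a value higher than that of 95.2% of tested genes. Insig2, the anchor of the same function, was at 23.0, 21.03 and 24.0 CPM with FTY720 and at 11.6, 16.9 and 15.5 CPM with LPS. All 3 LPS values were below the FTY720 values, and Insig2 (chr1:121304353-121332589, minus strand) fell 1.56-fold (-0.64 ± 0.20, adjusted p = 0.0126), a call that ended with DESeq2 (adjusted p = 0.0536) and without LPS replicate 1 (-0.45, adjusted p = 0.123). With the trend of fold change on mean expression removed, Insig1 stood at 0.70 and stayed called.

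The transcription factor and its escort gave smaller differences that did not pass the test. Srebf2, which encodes SREBP2, was at 64.1, 66.1 and 49.2 CPM with FTY720 and at 67.9, 64.7 and 65.6 CPM with LPS (log2 fold change 0.15 ± 0.14, adjusted p = 0.385). The groups overlapped, with FTY720 replicate 3 below the other 5 libraries. Scap, the escort, was at 28.02 to 37.7 CPM with FTY720 and 26.5 to 34.0 CPM with LPS (-0.11 ± 0.17, adjusted p = 0.631). The summed level of the 4 control genes was 400 ± 10.6 CPM (SD, n = 3) with FTY720 and 879 ± 66.9 CPM with LPS, of which Insig1 made up 285 ± 22.9 and 768 ± 63.0 CPM.

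Promoter sequence was available for 23 of the 28 genes in RefSeq (GRCm38.p6, 29 windows of 300 bases, 250 before and 50 after each start). The windows were searched on both strands for a sterol regulatory element (TCACNCCAC), an NF-Y box (CCAAT) and a GC box (GGGCGG). Of the NF-κB site only 1 form was searched, also on both strands, and looser forms were not. Overlapping matches of different motifs were counted separately. SREBP binds the sterol regulatory element and acts together with factors that bind the NF-Y and GC boxes. The sterol regulatory element letters were found in 1 of the 23 genes, Hmgcs1, and in 1.4% of the 7800 tested genes with a window. An NF-Y box was found in 21 of the 23 (91.3%) and in 43.1% of tested genes. A GC box was found in 21 of the 23 and in 71.3%. The searched NF-κB form was found in 0 of the 23 and in 0.526%, which leaves other forms of the site unexamined. The 21 genes with an NF-Y box include Insig1, which rose, Insig2 and Lss, which fell, and Hmgcs1, which did not pass the test. Stretches before the start of these 4 are printed 5′ to 3′ on the gene's strand because they carry the pair with opposite changes, an enzyme that fell in every alternative and the only element match among the 23; capitals mark the NF-Y box (ATTGG where it is on the other strand) and, in Hmgcs1, the element. They lie at chr5:28071162-28071362 (plus strand), chr1:121332590-121332749 (minus), chr10:76531445-76531587 (plus) and chr13:119690191-119690350 (plus).
Insig1: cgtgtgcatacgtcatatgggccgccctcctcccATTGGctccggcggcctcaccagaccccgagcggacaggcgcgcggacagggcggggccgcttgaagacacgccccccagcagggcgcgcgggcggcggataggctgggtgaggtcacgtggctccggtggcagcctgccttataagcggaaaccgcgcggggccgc
Insig2: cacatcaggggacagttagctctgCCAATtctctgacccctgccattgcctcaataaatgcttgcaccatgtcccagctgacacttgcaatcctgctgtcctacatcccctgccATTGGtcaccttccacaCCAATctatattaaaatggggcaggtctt
Lss: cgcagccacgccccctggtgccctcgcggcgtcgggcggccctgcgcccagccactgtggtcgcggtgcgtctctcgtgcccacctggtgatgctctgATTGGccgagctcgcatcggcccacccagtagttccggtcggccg
Hmgcs1: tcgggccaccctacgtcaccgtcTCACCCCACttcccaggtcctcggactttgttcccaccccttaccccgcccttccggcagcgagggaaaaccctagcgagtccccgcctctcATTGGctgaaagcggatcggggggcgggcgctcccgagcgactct
The printed Insig1 stretch covers bases 250 to 50 before the start. Those of Insig2 and Hmgcs1 cover bases 160 to 1, and that of Lss covers bases 160 to 18. The Insig1 and Lss stretches hold 1 NF-Y box each and that of Insig2 holds 3. That of Hmgcs1 holds 1 beside the sterol regulatory element. The stretches differ in place and length, so these counts do not compare the genes. The full Hmgcs1 window holds further NF-Y boxes outside its stretch, and the windows at the other Insig2 starts hold none. A match describes these letters in these windows and is not a measured binding site. Looser forms of the motifs and bases outside the windows were not searched, so a missing match does not show a missing site.

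Of the 8 genes from acetoacetyl-CoA to the prenyl diphosphates 2 were higher, 3 lower and 3 did not pass. That is 25% higher and 37.5% lower, against 23.3% and 22.7% of all tested genes, on few genes. Acat2, the thiolase that makes acetoacetyl-CoA, was at 9.68, 13.0 and 11.1 CPM with FTY720 and at 16.8, 16.1 and 16.02 CPM with LPS. The groups did not overlap, and the difference (0.54 ± 0.22) passed narrowly at adjusted p = 0.0488. Its call held in 4 of the 16 alternatives. It ended without FTY720 replicate 1 (adjusted p = 0.164), FTY720 replicate 3 (0.0606) and LPS replicates 1 (0.109), 2 (0.0909) and 3 (0.0705), and in 7 more settings, of which unscaled library sizes gave the highest (0.613). Hmgcs1, the synthase that joins the next acetyl unit, was at 58.1, 65.4 and 45.0 CPM with FTY720 and at 57.1, 46.5 and 41.6 CPM with LPS (-0.20 ± 0.16, adjusted p = 0.332). Its groups overlapped, and without FTY720 replicate 3 it was called lower (-0.33, adjusted p = 0.0357).

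The kinases that phosphorylate mevalonate were lower. Mvk, mevalonate kinase, was at 24.4, 18.4 and 20.0 CPM with FTY720 and at 14.6, 14.8 and 14.5 CPM with LPS, a 1.43-fold fall (-0.51 ± 0.20, adjusted p = 0.0424). Pmvk, phosphomevalonate kinase, was at 19.7, 17.7 and 20.5 CPM with FTY720 and at 15.7, 11.4 and 11.01 CPM with LPS, lower in every library (-0.59 ± 0.21, adjusted p = 0.0278). Neither gene overlapped between the groups. Mvk lost its call in 8 alternatives, such as without FTY720 replicate 1 (0.183) and LPS replicates 1 (0.13), 2 (0.107) or 3 (0.103), with the replicate block (0.0535) and with DESeq2 (0.136). Pmvk lost its call in 5, such as without FTY720 replicate 1 (0.0668), LPS replicate 2 (0.124) or LPS replicate 3 (0.113). Mvd, the decarboxylase that follows, was at 20.7 to 24.7 CPM with FTY720 and 16.9 to 22.03 CPM with LPS (-0.21 ± 0.19, adjusted p = 0.386).

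At the isoprenoid branch the synthases of the shorter and longer prenyl chain moved apart. Fdps, which makes farnesyl diphosphate for sterol synthesis, was at 71.8, 77.5 and 76.0 CPM with FTY720 and at 60.8, 50.8 and 55.1 CPM with LPS. It fell 1.35-fold with no overlap (-0.43 ± 0.13, adjusted p = 0.00994), a call that ended only without LPS replicate 2 (-0.35, adjusted p = 0.0884) among the 16 alternatives. Ggps1, which extends farnesyl to geranylgeranyl diphosphate for protein prenylation, was at 7.01, 8.68 and 12.7 CPM with FTY720 and at 17.5, 17.8 and 22.5 CPM with LPS. All LPS values were above the FTY720 values, and Ggps1 rose 1.97-fold (0.97 ± 0.24, adjusted p = 0.00209), on 101 reads with FTY720 and 134 with LPS, and lost its call on unscaled library sizes (0.64, adjusted p = 0.114). Idi1, the isomerase of the isoprenoid units, was at 38.0, 34.7 and 55.1 CPM with FTY720 and at 44.4, 55.9 and 43.1 CPM with LPS (0.15 ± 0.17, adjusted p = 0.501). FTY720 replicate 3 was the highest of its group, and without it Idi1 was called higher (0.40, adjusted p = 0.0235). In the GENCODE M21 annotation 26.7% of the exon bases of Fdps are shared with Gm43738 on the same strand, so the counting could have left reads out there.

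The 12 genes from squalene to cholesterol gave 2 higher, 3 lower and 7 that did not pass, and the largest falls lay at the entry. That is 16.7% higher and 25% lower, near the 23.3% and 22.7% of all tested genes. Fdft1 (chr14:63145150-63179578, minus strand), squalene synthase, was at 65.1, 66.1 and 71.1 CPM with FTY720 and at 43.6, 36.0 and 35.04 CPM with LPS (-0.81 ± 0.14, adjusted p = 6.46e-05). Lss (chr10:76531588-76557138, plus strand), which closes the ring to lanosterol, was at 50.1, 50.7 and 40.3 CPM with FTY720 and at 25.4, 31.3 and 26.0 CPM with LPS (-0.76 ± 0.16, adjusted p = 0.000576). In neither gene did the groups overlap. Sqle, squalene epoxidase, which acts between them and is a control point of the pathway, was at 107, 93.1 and 106 CPM with FTY720 and at 91.4, 102 and 86.6 CPM with LPS. Its groups overlapped (-0.13 ± 0.12, adjusted p = 0.404), and it was called lower with the expression trend removed (-0.42, adjusted p = 0.00578).

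The 9 genes that turn lanosterol into cholesterol mostly did not pass. Cyp51, the lanosterol demethylase, was at 84.8 to 94.9 CPM with FTY720 and 80.8 to 95.9 CPM with LPS (-0.04 ± 0.12, adjusted p = 0.816), and was called lower with the expression trend removed (-0.31, adjusted p = 0.0364). The sterol reductases Tm7sf2 (15.7 to 16.5 against 14.2 to 20.3 CPM) and Lbr (35.1 to 40.7 against 36.6 to 44.4 CPM), the latter also the lamin B receptor of the nuclear envelope, did not pass (0.09 ± 0.21 and 0.10 ± 0.15). In the GENCODE M21 annotation 12.1% of the exon bases of Tm7sf2 are shared with Vps51 on the same strand.

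Of the enzymes that remove the methyl groups next to the sterol hydroxyl, Msmo1 was at 140, 122 and 175 CPM with FTY720 and at 213, 187 and 170 CPM with LPS. FTY720 replicate 3 lay above LPS replicate 3, so the groups overlapped, although the test called Msmo1 higher (0.38 ± 0.13, adjusted p = 0.0208). That call ended in 7 alternatives: without FTY720 replicate 1 (adjusted p = 0.0774), FTY720 replicate 2 (0.0679), LPS replicate 1 (0.0942) or LPS replicate 2 (0.0534), with upper-quartile factors (0.111), on unscaled library sizes (0.03, adjusted p = 0.954) and after removal of the expression trend, where the sign turned (-0.07, adjusted p = 0.672). Nsdhl was at 40.7 to 54.4 CPM with FTY720 and 39.9 to 41.6 CPM with LPS, and Hsd17b7 at 17.2 to 24.0 and 19.0 to 33.5 CPM. Neither passed (-0.18 ± 0.15 and 0.33 ± 0.21).

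The last steps again went both ways. Ebp, the sterol isomerase, was at 20.4, 19.4 and 20.5 CPM with FTY720 and at 26.9, 34.3 and 24.0 CPM with LPS, a 1.42-fold rise with no overlap (0.50 ± 0.18, adjusted p = 0.029). Ebp lost its call in 6 alternatives, such as on unscaled library sizes (adjusted p = 0.672) and without FTY720 replicate 1 (0.0632) or LPS replicate 2 (0.179). Dhcr7, the final reductase, was at 69.4, 67.4 and 67.1 CPM with FTY720 and at 49.98, 53.3 and 53.6 CPM with LPS, a 1.30-fold fall with no overlap (-0.38 ± 0.13, adjusted p = 0.0207). Its call ended in 6 alternatives: with DESeq2 (0.0672) and without FTY720 replicate 1 (0.0681), FTY720 replicate 2 (0.053), LPS replicate 1 (0.119), LPS replicate 2 (0.0735) or LPS replicate 3 (0.0508). Sc5d, the desaturase between them, had 17 to 38 reads per library and did not pass (-0.22 ± 0.29).

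**Figure D2:**
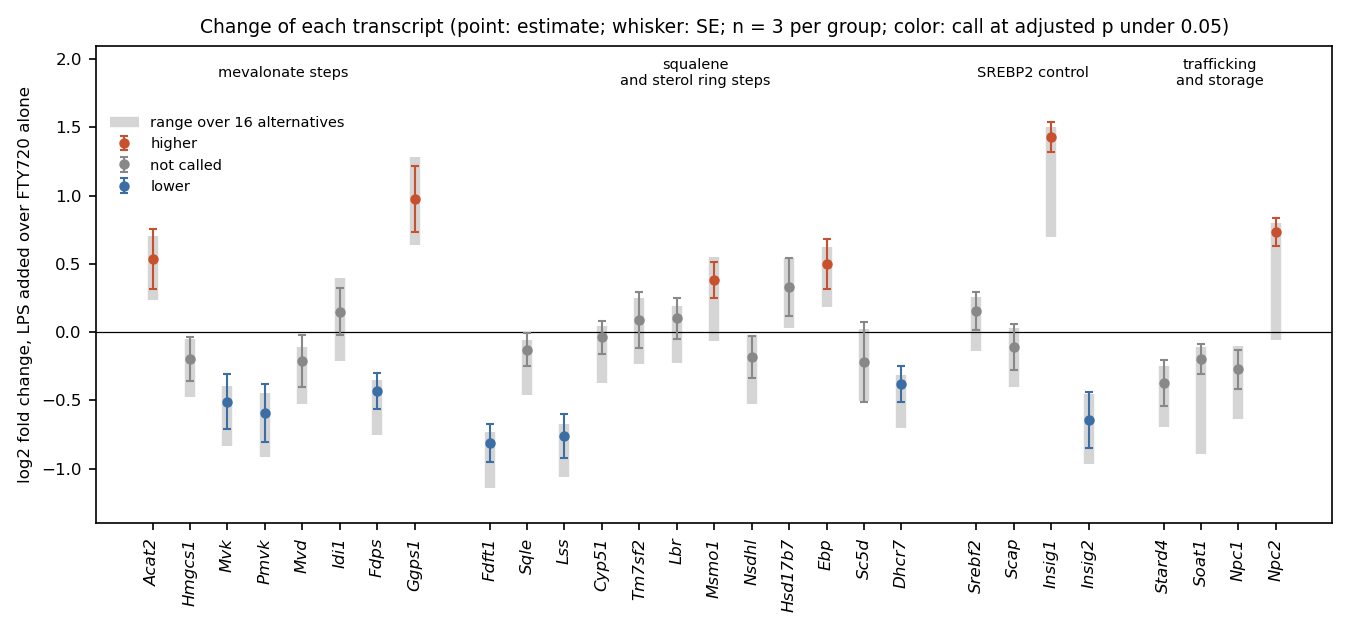
Log2 fold change (LPS added over FTY720 alone) of each gene by role; points are estimates, whiskers are SE (n = 3 per group), colors give the call at adjusted p under 0.05 and grey bars span the 16 alternative analyses. Insig1, Fdft1 and Lss stay on one side of 0 and called throughout, while the grey bars of Npc2 and Msmo1 reach just below 0.

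Summed over the 8 genes of the mevalonate block, levels were 253, 256 and 261 CPM with FTY720 and 245, 230 and 226 CPM with LPS, 9.01% lower on average. Summed over the 12 genes of the sterol block, levels were 672, 633 and 709 CPM with FTY720 and 670, 658 and 626 CPM with LPS, 2.97% lower on average. The mevalonate sums did not overlap and the sterol sums did. These sums are descriptions on the CPM scale, weighted toward the genes with most reads.

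Among the genes that move and store sterol, Npc2 rose and the others did not pass the test. Npc2 (chr12:84754562-84773152, minus strand), the lysosomal sterol carrier, was at 472, 470 and 498 CPM with FTY720 and at 758, 790 and 849 CPM with LPS (0.73 ± 0.10, adjusted p = 2.72e-06). The groups did not overlap. Of tested genes as abundant as Npc2 (above 8 log2 CPM, 269 genes) the median log2 fold change was also 0.73. With that trend removed Npc2 stood at -0.06 (adjusted p = 0.606), and on unscaled library sizes at 0.40 (adjusted p = 0.294). Npc1, the lysosomal membrane protein that receives sterol from NPC2, was at 133, 156 and 104 CPM with FTY720 and at 94.7, 107 and 124 CPM with LPS (-0.27 ± 0.14, adjusted p = 0.119). FTY720 replicate 3 was the lowest of its group, and without it Npc1 was called lower (-0.42, adjusted p = 0.000973), as it was with upper-quartile factors (-0.41, adjusted p = 0.0215) and with the trend removed (-0.64, adjusted p = 0.00221).

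Soat1, which esterifies cholesterol for storage in droplets, was at 441, 394 and 477 CPM with FTY720 and at 354, 364 and 430 CPM with LPS (-0.20 ± 0.11, adjusted p = 0.156). LPS replicate 3 lay within the FTY720 range. Soat1 was called lower after removal of the expression trend (-0.89, adjusted p = 1.3e-07) and with upper-quartile factors (-0.33, adjusted p = 0.0151). Stard4, a soluble sterol carrier, was at 43.7, 33.1 and 34.6 CPM with FTY720 and at 27.97, 28.8 and 29.0 CPM with LPS. Its groups did not overlap, but the test was missed (-0.37 ± 0.17, adjusted p = 0.0677); it was called lower without FTY720 replicate 3 (-0.42, adjusted p = 0.0268), with upper-quartile factors (-0.51, adjusted p = 0.0142) and with a minimum count of 20 (-0.42, adjusted p = 0.0414).

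**Figure D3:**
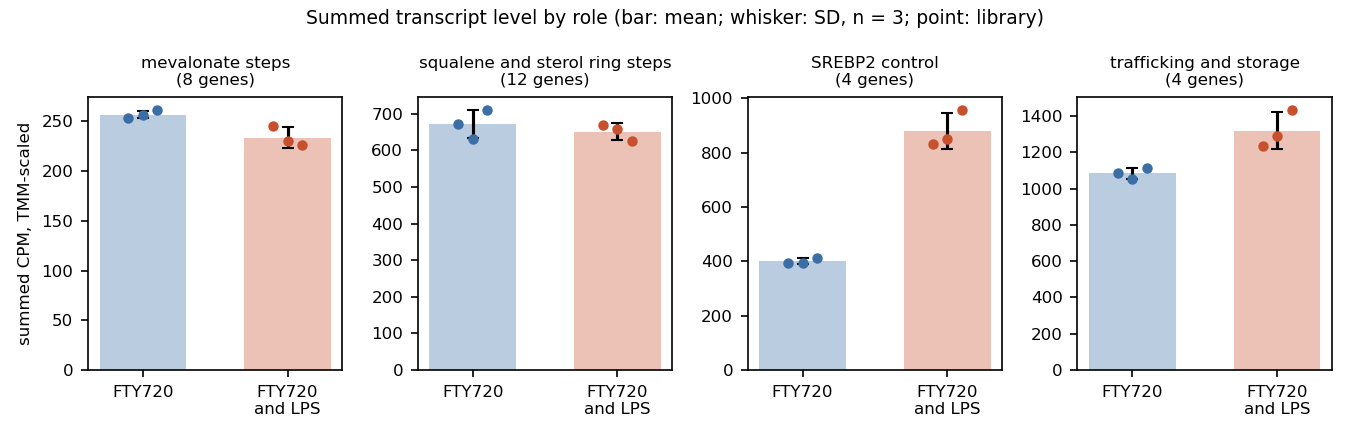
Summed CPM (TMM-scaled) of the genes of each role in each library; bars are means, whiskers SD (n = 3) and points libraries. The SREBP2 control sum went from 400 to 879 CPM, of which Insig1 alone made up 285 and 768 CPM. The sterol block sum overlapped between the groups.

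Levels were compared between genes per kilobase of the longest coding transcript (GENCODE M21). With FTY720 the highest were Npc2 at 145 ± 4.8, Insig1 at 106 ± 8.5, Msmo1 at 71.2 ± 13, Fdps at 54.3 ± 2.1, Soat1 at 52.2 ± 5.0 and Sqle at 36.9 ± 2.8 CPM per kilobase (SD, n = 3), and the lowest were Ggps1 at 2.23 ± 0.69 and Sc5d at 2.05 ± 0.53. Fdps and Soat1 lay within their spread, as did Ggps1 and Sc5d. With LPS Insig1 came first at 285 ± 23, followed by Npc2 at 242 ± 14, Msmo1 at 93.0 ± 11, Soat1 at 45.7 ± 4.9, Fdps at 40.2 ± 3.6 and Sqle at 33.8 ± 2.8. Insig2 was at 8.41 ± 0.56 CPM per kilobase with FTY720 and 5.44 ± 1.0 with LPS, so Insig1 exceeded it in both groups.

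Log2 fold changes of all tested genes rose with mean expression, and the 28 genes were placed against that trend. Between 5 and 6 log2 CPM, where 10 of the 28 lie, the median was 0.07 over 1915 genes and -0.19 over the 10, of which 7 were below the median. Between 6 and 7 log2 CPM all 4 (Fdps, Sqle, Cyp51 and Npc1) were below the median of 0.26. Between 4 and 5 log2 CPM 4 of 7 were below the median of -0.10, and the 3 under 4 log2 CPM (Acat2, Ggps1 and Sc5d) were all above the median of -0.28. Above 8 log2 CPM the upper quartile was 1.18, with Insig1 above it and Soat1 below the lower quartile of 0.48. With the trend removed 4 of the 28 were called higher and 9 lower, while 20.3% of all tested genes were called higher and 19.1% lower.

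**Figure D4:**
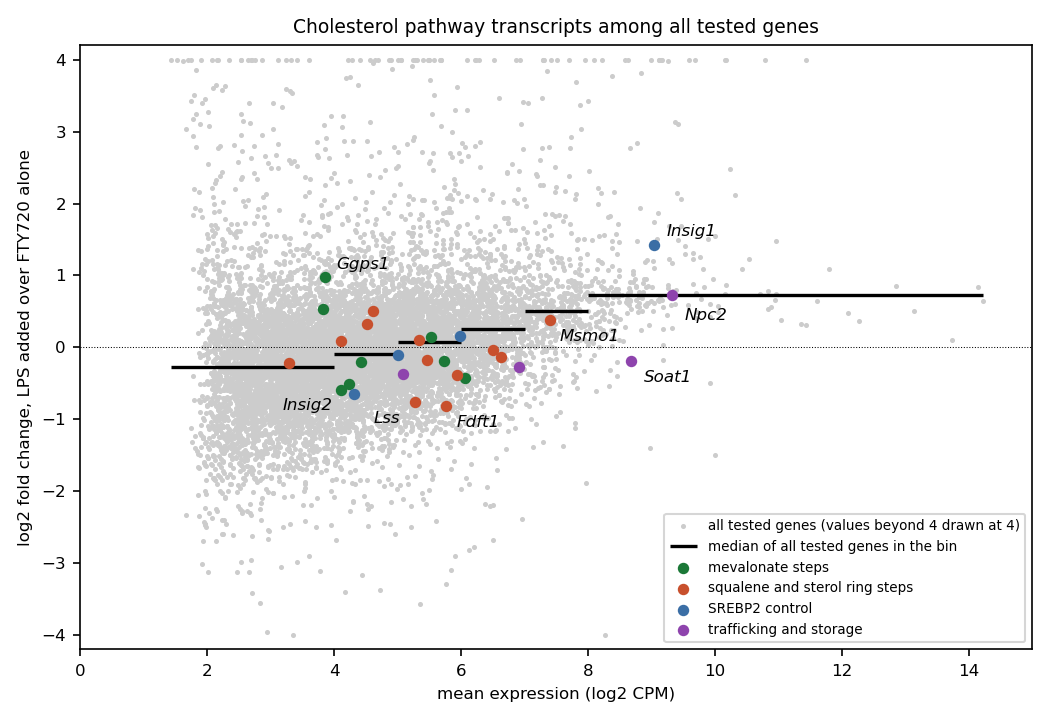
Log2 fold change (LPS added over FTY720 alone) against mean expression (log2 CPM) for all 10124 tested genes in grey and the 28 genes in color by role; black lines are medians of all tested genes in bins, and values beyond 4 are drawn at 4. Npc2 lies on the median line of its bin at 0.73, Insig1 above it at 1.43 and Soat1 below it at -0.20.

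Other genes of sterol and lipid handling, on 7 lists of 101 genes, were counted for comparison. Of the 93 tested, 23 were higher and 27 lower, or 24.7% and 29%, against 23.3% and 22.7% of all tested genes, and 43 did not pass. Their median was -0.15 and that of all tested genes -0.04. Of the 93, the count higher was 3 on unscaled library sizes and 15 after removal of the expression trend. In the oxysterol, liver X receptor and efflux list 2 of 8 tested genes were higher and 5 lower, against 0 and 5 in either of those settings and 1 and 4 without FTY720 replicate 1, LPS replicate 1 or LPS replicate 2. The 3 with the largest change were the exporters Abcg1 (-1.91 ± 0.18) and Abca1 (-1.496 ± 0.10) and the receptor partner Rxra (-1.90 ± 0.16). In the cholesteryl ester list 1 of 6 was higher and 4 were lower. The higher gene was the triglyceride synthase Dgat1 (1.05 ± 0.21), which stood at 0.72 (adjusted p = 0.0583) on unscaled library sizes. Those lower included the droplet coat gene Plin3 (-1.62 ± 0.24) and the lipase Lipe (-1.83 ± 0.47). Lipe had only 25, 36 and 15 reads with FTY720 and 8, 4 and 3 with LPS.

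In the fatty acid list, which shares SREBP control with cholesterol synthesis, 2 of 16 were higher and 7 lower. The counts were 3 and 5 with the trend removed, 1 and 7 on unscaled library sizes, 2 and 4 without FTY720 replicate 1, 1 and 7 without FTY720 replicate 3, 1 and 4 without LPS replicate 2 and 1 and 6 without LPS replicate 3. Acly, which supplies cytosolic acetyl-CoA to both pathways, rose by 1.29 ± 0.11, whereas Mid1ip1, an activator of fatty acid synthesis, fell by 1.599 ± 0.27 and the elongase Elovl6 fell by 1.51 ± 0.23. In the SREBP processing and degradation list 5 of 17 were higher and 3 lower (2 and 3 with the trend removed, 0 and 3 on unscaled library sizes, 3 and 1 without LPS replicate 2, 5 and 1 without LPS replicate 3), led by the coat subunit Sec24d (-1.82 ± 0.41, 96 reads against 19). The ubiquitin ligase Syvn1 (0.68 ± 0.21) lost its call without LPS replicate 2 (0.57, adjusted p = 0.0775) and on unscaled library sizes (0.39, adjusted p = 0.33), and the segregase Vcp (0.55 ± 0.11) did so on unscaled library sizes (0.23, adjusted p = 0.569) and with the trend removed (0.04, adjusted p = 0.761).

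Of 15 uptake receptors and adaptors 4 were higher (1 on unscaled library sizes) and 2 lower (5 without FTY720 replicate 3). The oxidised lipoprotein receptor Olr1 rose by 5.21 ± 0.31 from 11 reads to 288, the scavenger receptor Cd36 by 1.01 ± 0.14 (0.64 with adjusted p = 0.0741 on unscaled library sizes), and Lrp12 fell by 1.14 ± 0.27. Of 18 tested genes of other sterol transport 7 were higher and 5 lower. The counts were 4 and 6 with the trend removed, 0 and 5 on unscaled library sizes, 6 and 3 with DESeq2, 5 and 3 without FTY720 replicate 1, 7 and 3 without LPS replicate 1 and 7 and 2 without LPS replicate 3. The largest changes were in Gramd1b (-1.02 ± 0.21), Osbpl1a (-0.75 ± 0.25, not called in 6 alternatives, such as without FTY720 replicate 1 at adjusted p = 0.0642, FTY720 replicate 2 at 0.0627, LPS replicate 1 at 0.058 and LPS replicate 3 at 0.071) and Osbpl9 (-0.68 ± 0.13). Of 13 genes that use isoprenoids 2 were higher (1 without FTY720 replicate 1, LPS replicate 1 or LPS replicate 2) and 1 lower. Rabggta, a geranylgeranyl transferase subunit, fell by 1.31 ± 0.31. Pdss1, which builds the ubiquinone tail, stood at 1.58 ± 0.47 (1.10 and adjusted p = 0.126 without LPS replicate 1). Pdss1 had only 7, 1 and 18 reads with FTY720 and 31, 14 and 9 with LPS, and was not tested at a minimum count of 20. Rabggtb stood at 0.42 ± 0.14 and lost its call in 6 alternatives, such as on unscaled library sizes (adjusted p = 0.876) and without FTY720 replicate 1 (0.0532), FTY720 replicate 2 (0.0633) or LPS replicate 2 (0.0566).

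Markers of other brain cells were present, and in bulk RNA fewer cells of a type and less RNA per cell cannot be told apart. Of 7 tested oligodendrocyte-lineage markers 6 were lower and none (0) higher with LPS; the summed level of the 9 listed ran from 278 to 304 CPM with FTY720 and from 145 to 168 CPM with LPS. Of 4 tested neuron markers 3 were lower, with sums of the 7 listed from 188 to 251 and from 107 to 117 CPM. The oligodendrocyte-lineage and neuron sums did not overlap between the groups, and neither did the sum of the microglia markers, which was higher with LPS. Of 6 tested astrocyte markers 2 were higher and 1 lower, with sums of the 9 listed from 91.4 to 112 and from 105 to 144 CPM. Of 5 tested fibroblast and mural markers none (0) passed, with sums of the 7 listed from 57.2 to 141 and from 105 to 165 CPM and Rgs5 at 0 reads. The 2 tested monocyte and border macrophage markers (Mrc1 and Pf4) were higher, with sums of the 6 listed from 69.0 to 76.1 and from 109 to 137 CPM and Ly6c2 at 0 reads. The 1 tested endothelial marker, Cdh5, was higher, with sums of the 4 listed from 4.34 to 6.34 and from 11 to 14.2 CPM. The part of these cells in the changes of the 28 genes was not tested.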

How the data were processed

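The 6 libraries were prepared from rRNA-depleted total RNA by a directional, randomly primed method, per the labels' protocols. The authors deposited raw read counts per gene in the layout of STAR's gene counts. The mm10 build, STAR 2.5.1, Trimmomatic 0.33, CASAVA 1.8.2 and DESeq2 are named in the submitters' processing notes, without settings or annotation. The sense-strand counts were used, which held 98.4% to 98.9% of gene reads; counts of this kind leave out reads that map to several places. Reads assigned to no gene were excluded. Of all reads, 24.4% to 27.0% were unmapped, 7.69% to 8.15% multimapping and 0.0748% to 0.114% ambiguous. A further 42.2% to 44.5% matched no annotated feature on the sense strand. Whether those reads lay between genes, in introns or opposite to a gene was not examined.

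Groups were compared with edgeR 4.0.16 (R 4.3.3; quasi-likelihood test, TMM factors, filterByExpr with minimum count 10, no block). P-values were adjusted over all tested genes by Benjamini-Hochberg, with a threshold of 0.05; the SE is the absolute log2 fold change over the square root of F. Alternatives used other scaling (upper-quartile or RLE factors, or library sizes with no factor, called unscaled), counts without the rRNA-like genes, DESeq2 1.42.0 on the same genes, cyclic loess (limma 3.58.1; log2 CPM with prior count 2), other filters, unstranded counts, a replicate block and 1 library left out. The edgeR script was tested on simulated data. Every pair of replicates differed by more than sampling noise (chi-square per degree of freedom 1.29 to 4.88). Positions and lengths are from GENCODE M21 (GRCm38, also called mm10). The members and lists were chosen with earlier results of these data known. The 28 genes are all named; of each other list, up to 3 called genes with the largest change and a mean of at least 1 log2 CPM are.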

Additional observations from a re-analysis of the deposited data

Results flagged for a closer look

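Reads on the strand opposite to the gene were not used in the comparisons. They exceeded 3 reads, the limit that a count of 0 allows, in every library for 5 of the 28 genes. Fdft1 had 1250 such reads summed over the 6 libraries, 56.4% of its reads on either strand, against 1.06% to 1.61% over all genes of a library. They numbered 219, 294 and 320 in FTY720 replicates 1 to 3 and 138, 154 and 125 in LPS replicates 1 to 3, or 82.2 ± 13.9 and 59.7 ± 7.27 CPM (SD, n = 3). In GENCODE M21 the exons of Ctsb, which encodes the lysosomal protease cathepsin B, overlap 774 exon bases of Fdft1 on the opposite strand; their part in these reads was not tested. The deposited unstranded counts are a column of their own and not the sum of both strands: Fdft1 has 989 reads there over the 6 libraries, against 967 on the sense strand, so most opposite-strand reads are not in it. The other 4 genes had few such reads: Npc2 had 134 (1.26% of its reads), Npc1 104 (4.8%), Insig1 60 (0.716%) and Soat1 60 (0.827%).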

How the results depend on the processing

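Of 13 called genes among the 28, 3 kept their call in all 16 alternatives and 10 lost it in at least 1; of 15 uncalled genes 7 were called in at least 1. The count of the 28 called higher (6) was 3 with upper-quartile factors and 1 on unscaled library sizes, and ranged from 3 to 6 when 1 library was left out. The share of all tested genes called higher (23.3%) was 18.6% and 7.57% in those scalings. It ranged from 19.4% to 26.6% when 1 library was left out. The count of the 28 called lower (7) was 3 with DESeq2 and ranged from 3 to 10 when 1 library was left out. It was 3 without LPS replicate 2 and 4 without FTY720 replicate 1, LPS replicate 1 or LPS replicate 3. The share of all tested genes called lower (22.7%) was 15.1% with DESeq2. When 1 library was left out it ranged from 16.1% without LPS replicate 1 to 24.3% without FTY720 replicate 3, with 16.4% without LPS replicate 2. Signs turned among called genes in Msmo1 (-0.068) and Npc2 (-0.055), both with the expression trend removed. Over all genes, 2362 were higher and 2297 lower (50.7% higher). The counts were 766 and 2688 on unscaled library sizes (22.2%), 1885 and 2969 with upper-quartile factors (38.8%), and 2036 and 1529 with DESeq2 (57.1%). These scalings moved the median log2 fold change of all genes by -0.32 and -0.13, and DESeq2 by 0.01. Of the other lists, 23 higher became 3 on unscaled library sizes and 15 with the trend removed. The causes were not tested. With the replicate block 5 of the 28 were higher and 6 lower, and of all tested genes 22.6% were higher and 21.4% lower. The correlations of same-numbered deviations were -0.02, -0.03 and -0.07, and those of differently numbered ones ran from -0.05 to 0.06. No pairing by number was seen. With 3 libraries a group these values cannot show whether same-numbered samples shared a culture or a pool of mice. Depth limits Sc5d (17 to 38 reads per library), Acat2 (29 to 47) and Ggps1 (21 to 54) most.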
